A study of Homo sapiens with 9 samples.

Results

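Subtelomeric regions were taken as the stretches of open chromatin that lie wholly within 1 Mb of the end of a chromosome arm. Peaks of 9 ATAC-seq libraries on chromosomes 1 to 22 were merged wherever they overlapped by at least 1 bp, which gave 115414 regions. Of these, 2442 (2.12%) were subtelomeric, on 17 short arms and 22 long arms, after the 5 short arms of chromosomes 13, 14, 15, 21 and 22 were left out. All libraries came from MDA-MB-231, an established human TNBC cell line, and ATAC-seq reads where the transposase Tn5 can cut DNA that is not packed away. The groups were shCtrl, a control shRNA (n = 2), shEZH2 (n = 2), shE2F1 (n = 2) and shSUZ12 (n = 1), each delivered by lentivirus for 24 h and followed by 72 h of selection with puromycin at 2 μg/ml, and cells given DMSO (n = 1) or GSK126 (n = 1) for 72 h. The library titled DMSO carries the treatment label WT. EZH2 is the enzyme of PRC2, the complex that methylates lysine 27 of histone H3, SUZ12 is a core subunit of it, GSK126 inhibits EZH2, and E2F1 is a transcription factor of cell cycle genes. Peak lists cannot show how far each protein was depleted. Nothing in the labels says that replicates came from separate cultures, so differences between them may be technical.

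A subtelomere lies between the telomere, the array of TTAGGG repeats that caps a chromosome, and the sequence that is particular to that chromosome. Its outer part is a patchwork of segments copied between chromosome ends, with families such as WASH, DDX11L, OR4F and, on 4q and 10q, DUX4. Its inner part is often rich in genes and in G and C. Short-read aligners cannot place a read that fits several copies, and here up to 4 placements per read were kept.

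The lists held 58626 to 85812 peaks, the fewest in replicate 2 of shEZH2. The breast cancer line was checked at gene starts. VIM, CD44, EGFR, AXL and CAV1, typical of mesenchymal-like TNBC cells, had a peak in all 9 libraries, as did KRT8 of luminal cells. GATA3 of luminal cells, PTPRC of leukocytes and PECAM1 of endothelium had none. The luminal genes ESR1, PGR and FOXA1 had peaks at percentiles of 3.66 to 35.6 in 7 or 8 libraries, a range that overlaps that of AXL (0.81 to 24.3). KRT8 ran from 37.2 to 62.2, above AXL and overlapping CAV1 (26.9 to 49.1). The luminal genes were thus not lower than every mesenchymal one. Strength is given throughout as the percentile of a peak's fold enrichment within its own list, where 100 is the strongest peak.

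Windows centred on summits are shown, all from the plus strand of GRCh38, because the position, the repeats and the copies of these windows carry the results that follow. The first are the summits of the 3 outermost regions that had a peak in all 9 libraries, with CpG dinucleotides in capitals.
11q, chr11:135070054-135070154: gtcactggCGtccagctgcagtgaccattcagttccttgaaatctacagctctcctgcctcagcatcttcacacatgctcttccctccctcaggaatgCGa
22q, promoter of RABL2B, chr22:50783675-50783775: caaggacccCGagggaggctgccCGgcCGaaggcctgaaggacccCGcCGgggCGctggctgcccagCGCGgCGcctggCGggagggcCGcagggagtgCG
21q, chr21:46667938-46668038: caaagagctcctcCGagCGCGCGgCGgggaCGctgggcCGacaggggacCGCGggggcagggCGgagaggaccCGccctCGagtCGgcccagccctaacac
The 11q region (chr11:135069906-135070347) lay 16.3 kb from the end, over the noncoding gene LINC02684. The 22q region (chr22:50783065-50784258) lay 34.2 kb from the end at the start of RABL2B, a small GTPase gene. The bases at its summit occur 2 times in the assembly, 1 of them on chromosome 22, so which copy was open cannot be told apart. The 21q region (chr21:46667018-46668428) lay 41.6 kb from the end over a noncoding gene.

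The second is part of a promoter region that holds telomere-type repeats away from the telomere. It is centred on the repeats and not on the summit, with TTAGGG and its complement CCCTAA in capitals.
4p, promoter of PCGF3, chr4:705120-705220: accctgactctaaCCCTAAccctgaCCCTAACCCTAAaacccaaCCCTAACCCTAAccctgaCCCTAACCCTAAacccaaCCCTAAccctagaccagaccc

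The last is a summit between zinc finger genes on 19q whose central 31 bases, in capitals, occur 6 times in the assembly.
19q, chr19:57804068-57804168: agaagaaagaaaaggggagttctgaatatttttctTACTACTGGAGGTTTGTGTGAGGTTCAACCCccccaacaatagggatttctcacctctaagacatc

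Open chromatin was denser near chromosome ends than elsewhere. The windows held 65.5 regions per Mb of bases that are not N (37.3 Mb), against 41.6 per Mb in the rest of the autosomes (2719 Mb), a ratio of 1.58. Within single libraries the ratio was 1.49 ± 0.0315 (SD, n = 9) and ran from 1.44 in GSK126 to 1.53 in replicate 1 of shCtrl, so every library showed it. The ratio was 1.45 with peaks at a −log10 q of at least 5 and 1.37 when each list was limited to its 57037 most significant peaks. Short arms (63.9 per Mb) and long arms (66.8 per Mb) were alike in level. The windows as a whole were less dense than the next megabase, 1 to 2 Mb from the end, which held 71.4 regions per Mb. Their inner part, 0.5 to 1 Mb from the end, was denser than that, at 75.7 per Mb. Their outer 0.5 Mb held 54.5 per Mb. Farther in, density fell to 58.3 per Mb at 2 to 3 Mb and 49.3 per Mb at 5 to 10 Mb.

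Gene starts were concentrated more than open chromatin was. The windows held 641 starts of protein-coding genes, 17.2 per Mb against 6.79 elsewhere, a ratio of 2.53. There were thus 3.81 regions per gene start near the ends and 6.12 in the rest of the genome. G and C made up 48.2% of the bases in the windows and 40.9% outside them.

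Within the windows, density rose with distance from the end. The outermost 100 kb held 77 regions, 30.7 per Mb, fewer than the rest of the genome. From 100 to 200 kb it was 44.4 per Mb, and it reached 81.5 per Mb at 700 to 800 kb. Repeated sequence ran the other way: of 31-base words taken every 1 kb, 55.2% in the outermost 100 kb occurred more than once in the assembly, 43.9% at 100 to 200 kb and 14.1% at 900 to 1000 kb, against 16.9% outside the windows. In blocks of 50 kb where at least 50% of words were repeated, subtelomeric density was 15.8 regions per Mb, near the 13.9 of such blocks elsewhere. In the other blocks it was 71.9 near the ends and 43.2 elsewhere, so the excess lay in the less repeated blocks. These were split by words that also occur on alternate-locus contigs of the assembly. Where such words made up less than 50%, density was 74.1 near the ends and 42.95 elsewhere. Where they made up 50% or more, it was 59.1 and 57.0. Closed chromatin and reads that could not be placed cannot be told apart in the repeated blocks.

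**Figure D1:**
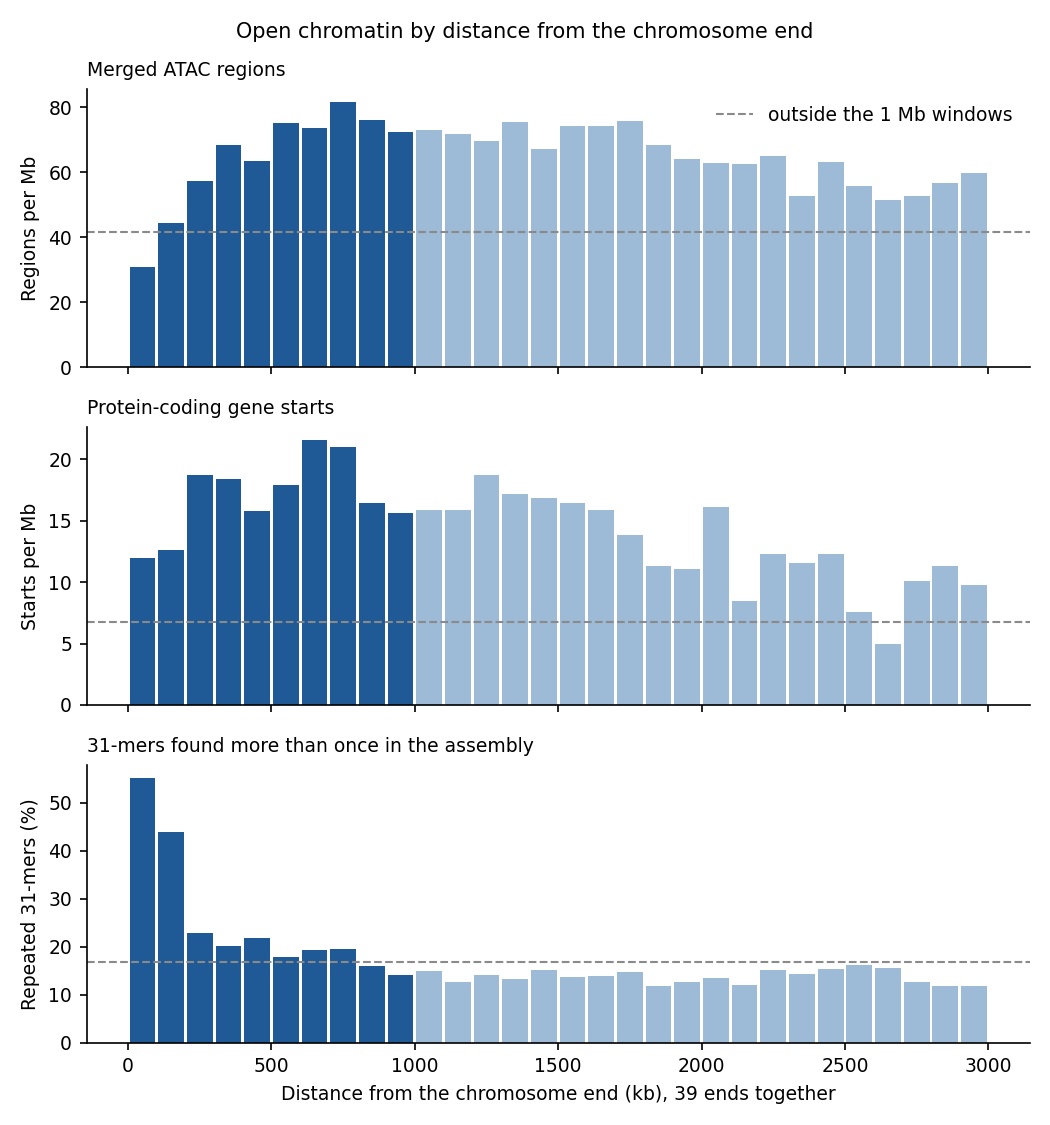
Regions per Mb (top), protein-coding starts per Mb (middle) and percent of sampled 31-base words found more than once in the assembly (bottom) in 100 kb bins from the chromosome end, over 39 ends; dark bars are the subtelomeric windows and the dashed line is the level outside them. Region density climbs from 30.7 per Mb in the first bin to 81.5 at 700 to 800 kb, where repeated words have fallen from 55.2% to 19.5%.

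The arms differed widely. The densest was 20q with 125.8 regions per Mb (112 regions), then 11p with 117 per Mb (110 regions) and 17q with 116.2 per Mb (115 regions). The fewest were on 3p with 4.04 per Mb (4 regions), 4q with 12.8 per Mb (12 regions) and 8p with 20.2 per Mb (19 regions). The 10 densest arms held 1033 members, 42.3% of all. Of 39 arms, 28 were denser than the rest of their own chromosome and 11 less dense, with a median ratio of 1.499. Only 13q and 8q exceeded 3-fold: 13q had 89.4 regions per Mb against 22.97 on the rest of chromosome 13, and 8q had 108.5 against 31.1. Over the 39 arms, which share all 9 libraries, density followed gene starts (Spearman's rho 0.69) and the share of G and C (0.82) more than the share of repeated words (−0.13), as a description only.

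Sparse arms were of several kinds. The last megabase of 3p contains a single protein-coding start, that of CHL1, a neural cell adhesion gene, and all 4 of its regions lay at CHL1. The promoter region (chr3:197405-197664) had peaks only in replicate 1 of shCtrl, at percentile 19.3, and replicate 1 of shEZH2, at 11.2. On 1p, 79.9% of words were repeated, and no region lay in the outermost 817.2 kb. On 14q there was no protein-coding start and 22 regions. On 1q the 34 starts included 28 of olfactory receptor genes, and 23 regions were found. Arms also differed in how widely their regions recurred: on 3q, 60.9% of 46 regions had a peak in all 9 libraries, while on 2p only 2 of 57 did and 32 were found in a single library.

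**Figure D2:**
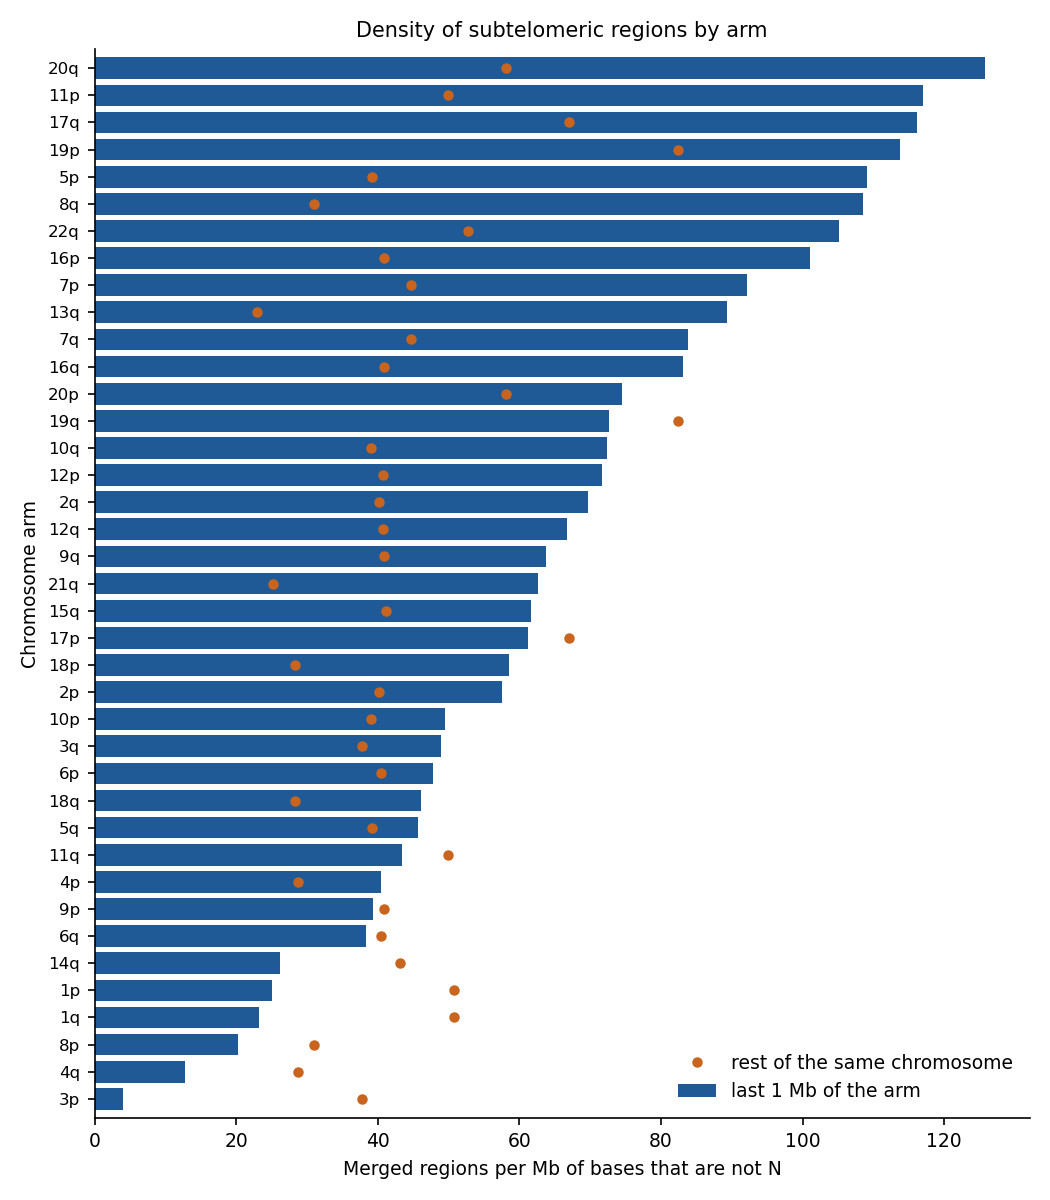
Merged regions per Mb in the last 1 Mb of each of 39 arms (bars) and in the rest of the same chromosome (points). Bars pass the point on 28 arms, most widely on 13q and 8q, and fall short of it on 11, with 3p lowest at 4.04 per Mb.

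Long stretches without any region were also found. They were looked for after KDM5A and DUSP22, 2 genes of the list described further on, proved to have no peak. The windows held 29 stretches of at least 100 kb with no peak in any library, 14.2% of their bases, against 39.5% of bases outside. Those near the ends held 8.12 gene starts per Mb and those elsewhere 1.41. As a share of gene starts, the stretches took in 6.71% of those in the windows and 8.21% of those outside. Of the 43 starts inside the stretches near the ends, 24 were of olfactory receptor genes. On 5q the outermost 377.8 kb had no peak, although the stretch contains the starts of RACK1, which encodes a constitutive protein of the small ribosomal subunit, and of TRIM41, TRIM7 and TRIM52. On 6p a stretch of 156.4 kb (chr6:252219-408597) held the starts of DUSP22, a phosphatase gene, and IRF4, a lymphoid transcription factor gene. On 12p a stretch of 149.8 kb (chr12:292536-442313) held those of KDM5A, a histone H3 lysine 4 demethylase gene, and CCDC77. Repeated words made up 68.2% of the 5q stretch, 26.7% of the 12p stretch and 6.41% of the 6p stretch. Words that also occur on alternate-locus contigs made up 28.0%, 10% and 1.92% of them. The part of either kind of copy in the missing peaks was not tested, and whether reads of these stretches were set aside before peaks were called is not given in the sources used here.

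Subtelomeric regions recurred across libraries about as often as others, yet more of them were found once only. A peak in all 9 libraries was seen at 805 regions, 33.0% (95% Wilson interval 31.1 to 34.9), against 34.3% elsewhere. A peak in a single library was seen at 774, 31.7% (29.9 to 33.6), against 24.2%. The next megabase had 32.6% and 30.9%. Intervals cover counting error only, since neighbouring regions are not independent. The order for all 9 libraries depended on the peaks used: it was 37.8% near the ends against 36.5% elsewhere at a −log10 q of at least 5, and 46.8% against 41.1% with lists of equal length.

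Promoters took a larger part of the subtelomeric set. Regions within 1 kb of a protein-coding start numbered 477, 19.5% of members against 12.3% elsewhere. Exons away from promoters held 12.3% of members against 6.64%, and intergenic sequence 25.0% against 33.0%. Of subtelomeric promoter regions, 69.6% had a peak in all 9 libraries, against 75.0% of other promoter regions. Away from promoters the shares were 24.1% and 28.6%, and single-library regions made up 37.4% against 26.4%. Both classes were therefore less recurrent near the ends, and the larger share of promoters offset this in the total.

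Around their summits, members were richer in G and C and in CpG. In the 100 bp on each side of the highest summit, the median share of G and C was 62.2%, against 51.2% elsewhere, and the ratio of observed to expected CpG was 0.36 against 0.22. Away from promoters the share of G and C was 60.2% against 49.8%. The AP-1 site (TGACTCA or TGAGTCA, either strand), bound by FOS and JUN proteins, was found at 404 members, 16.5%, beside 25.5% of all regions. E2F sites (TTTCCCGC, TTTCGCGC, TTTGCCGC or TTTGGCGC, either strand) were found at 0.86% of members and 0.79% of all regions, and the CTCF motif at 3.03% and 3.78%. In promoters AP-1 sites were at 5.03% of members and 5.48% of all promoter regions, so the lower share lay away from promoters (19.3% against 28.4%). The next megabase, 1 to 2 Mb from the end, had like values: a median share of G and C of 63.7%, a CpG ratio of 0.35 and AP-1 sites at 17.2% of regions.

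Tandem telomere repeats, that is 2 or more adjacent copies of TTAGGG on either strand, occurred in 28 regions of the genome, 7 of them subtelomeric. None of the 2780 regions 1 to 2 Mb from the end held one. One of the 7, the promoter of PCGF3, a gene of a PRC1 subunit (chr4:705074-706531), held 24 copies of CCCTAA and had percentiles of 87.4 and 83.7 in shCtrl, 79.4 and 78.9 in shEZH2, 71.5 and 89.9 in shE2F1, 89.8 in shSUZ12, 91.3 in DMSO and 94.9 in GSK126. Both shEZH2 libraries lay below both shCtrl libraries, and the shE2F1 libraries lay on either side of them. The 6p repeat region (chr6:147713-149036) went the other way, at 19.3 and 45.8 in shCtrl and 73.1 and 65.4 in shEZH2. In the 20q, 16p and 12q repeat regions the shEZH2 and shCtrl libraries overlapped. Of all regions with a peak in every library, 19.1% ranked lower and 21.8% higher with shEZH2. The 31 bases at the summit of the PCGF3 region occur 1 time in the assembly. The window printed above is centred on the repeats, whose copies were not counted.

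Copied sequence was found at few summits. The 31 bases at the summit occurred more than once in the assembly at 127 members (5.20%), beside 4.02% of all regions. At 87 of them there were 2 copies, and at 29 a copy lay at another chromosome end. Of the 127, 27 had a peak in all 9 libraries. At the 19q summit printed above (chr19:57803640-57805153, 812.5 kb from the end) percentiles were 77.95 and 84.5 in shCtrl, 69.6 and 61.7 in shEZH2, 45.6 and 56.5 in shE2F1, 83.9 in shSUZ12, 68.1 in DMSO and 73.3 in GSK126. Which copy was open cannot be told apart at such summits.

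Promoters of subtelomeric genes were read gene by gene. Of 641 starts, 370 (57.7%, 53.9 to 61.5) had a peak within 1 kb in all 9 libraries, 84 in some and 187 in none. Elsewhere 61.1% of starts had one in all 9. None of 40 olfactory receptor starts had a peak, which allows a share of up to 8.76% (Wilson), and without these genes the shares were 61.6% near the ends and 62.3% elsewhere. Within 100 kb of the end 13 of 30 starts had a peak in all 9 libraries, and beyond 500 kb 218 of 359. Where a promoter had a peak in all 9 libraries, its median percentile was 68.5 near the ends and 77.8 elsewhere.

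Families copied between chromosome ends were without peaks almost throughout. Coding and noncoding members were counted together here. None of 7 WASH genes, which encode or descend from an actin-nucleation factor, had a peak at its start, nor did any of 18 OR4F olfactory receptor genes, 5 TUBB8 tubulin genes, 3 FRG2 genes, 24 DUX4 genes or 14 RPL23AP pseudogenes. One of 9 DDX11L pseudogenes had a peak in some libraries. Reads from near-identical copies cannot be told apart, so these zeros are uncertain. The ZNF genes were the contrast, since 53 of 65 had a peak in all 9 libraries. Protein-coding ZNF starts had a peak in all 9 at 84.6% near the ends and 82.5% elsewhere.

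A list of 44 subtelomeric genes on many arms was read in each library, and 29 of them had a promoter peak in all 9. The highest median percentile was that of PDCD6. PDCD6, a calcium-binding protein gene on 5p, had percentiles of 98.3 and 98.7 in shCtrl, 97.5 and 98.4 in shEZH2, 98.6 and 99.2 in shE2F1, 97.9 in shSUZ12, 98.3 in DMSO and 98.7 in GSK126. These values hardly differed. PRMT2 (an arginine methyltransferase, 21q) ran from 94.2 to 99.4, NPRL3 (a component of the GATOR1 complex, 16p) from 89.6 to 99.4, PIGG (an enzyme of GPI anchor synthesis, 4p) from 80.5 to 97.3, SDHA (a succinate dehydrogenase subunit, 5p) from 86.0 to 95.9 and POLR3K (an RNA polymerase III subunit, 16p) from 82.8 to 96.4. POLR3K lies 53.6 kb and PRMT2 74.3 kb from the end, so a strong promoter was present close to the telomere on both arms.

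AXIN1, a scaffold gene of the WNT pathway on 16p, ran from 69.7 to 91.1, and the DNA repair gene MPG on the same arm from 9.14 to 24.6. The RAS GTPase gene HRAS on 11p ran from 40.5 to 75.3 and EHMT1, a histone H3 lysine 9 methyltransferase gene on 9q, from 46.1 to 83.7. The promoters of the neural genes TUBB3 and SHANK3 had weak peaks in all 9 libraries, from 2.54 to 22.3 and from 0.79 to 36.0. Of the interferon-induced transmembrane genes of 11p, IFITM3 had a peak in all 9 libraries (6.02 to 33.8), IFITM2 in 5 (3.74 to 11.4), and IFITM1 and IFITM5 in none. Among globin genes on 16p, HBQ1 had a peak in all 9 and HBA2 and HBM in none, while HBA1 had weak ones in 6. HBA1 and HBA2 are near-identical, so their reads cannot be told apart. The neutrophil granule genes ELANE and PRTN3 on 19p had no peak and AZU1 had one in 4 libraries, whereas their neighbour CFD, complement factor D, had one in all 9 (5.61 to 64.3).

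NOC2L and AHRR were picked out after their values were seen, and were not the only listed promoters that separated a knockdown from shCtrl. With shEZH2, for example, HRAS, AXIN1 and EHMT1 also lay below the shCtrl range and PRMT2 above it. With shE2F1, SDHA, POLR3K and PIGG lay below that range and PRMT2 above it. Such separation was common. Of all regions with a peak in every library, 19.1% ranked lower and 21.8% higher with shEZH2, and 19.6% and 20.5% with shE2F1. NOC2L, a gene of a histone acetyltransferase inhibitor on 1p, had percentiles of 76.8 and 78.7 in shCtrl, 49.3 and 31.6 in shEZH2, 67.1 and 70.6 in shE2F1, 70.98 in shSUZ12, 76.5 in DMSO and 72.1 in GSK126. It was thus lowest in both shEZH2 libraries and not in the other PRC2 perturbations. AHRR, the repressor of the aryl hydrocarbon receptor on 5p, had 43.1 and 46.5 in shCtrl, 39.5 and 20.4 in shEZH2, 11.8 and 14.2 in shE2F1, 48.5 in shSUZ12, 29.2 in DMSO and 43.7 in GSK126, lowest in both shE2F1 libraries. With 2 libraries against 2 the smallest two-sided exact permutation p is 0.3333, so no single promoter can pass a test.

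**Figure D3:**
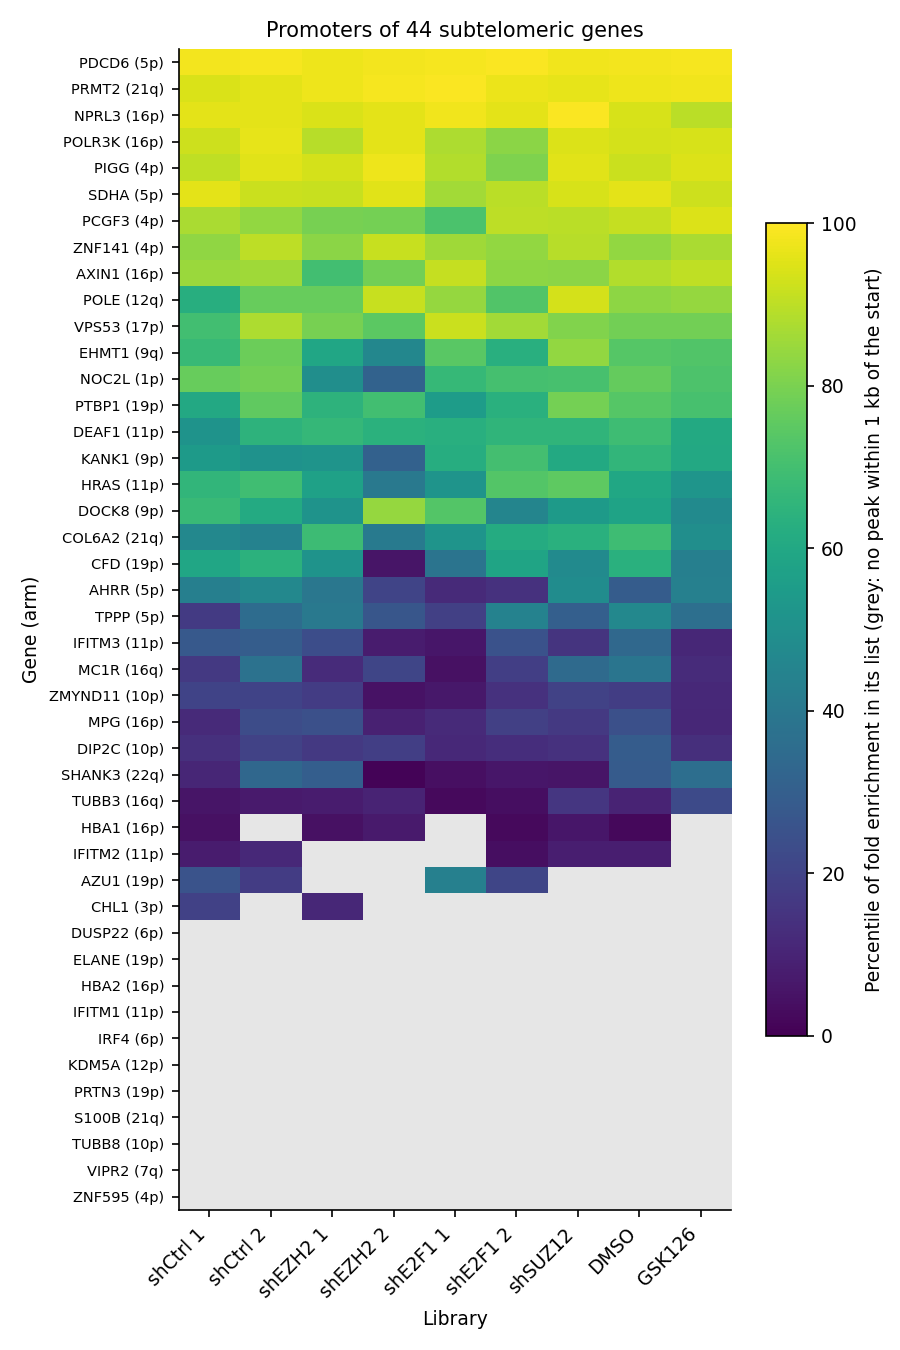
Percentile of fold enrichment of the strongest peak within 1 kb of the start of 44 subtelomeric genes (rows, with their arm) in each of 9 libraries (columns); grey marks no peak. 29 genes have a peak in every library, led by PDCD6 and PRMT2, and 11 have none, among them KDM5A, DUSP22 and IRF4.

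The strongest subtelomeric regions were not all promoters. The highest mean percentile, 99.9, was that of a region over the noncoding gene ANKRD18DP on 3q (chr3:198071667-198072300), and it ran from 99.8 to 100 in the 9 libraries. Second was the promoter of DYNC2I1, a cilium transport gene on 7q (chr7:158855981-158857110), at 99.6. Next came an intron of RUBCN, an autophagy regulator gene on 3q (chr3:197718560-197719483), at 98.9. The promoters of PDCD6 and ZNF84 followed at 98.4 each. At the edge of the window, the 3 regions just inside had mean percentiles of 50.2, 32.6 and 14.7, and the 3 just outside 35.7, 26.7 and 24.4.

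By fold enrichment, subtelomeric regions were weaker than others in every library. Their median percentile was 41.5 and 43.3 in shCtrl, 39.5 and 43.9 in shEZH2, 43.2 and 42.1 in shE2F1, 44.6 in shSUZ12, 46.2 in DMSO and 46.1 in GSK126, while that of the rest was between 51.7 and 53.1. The difference was −9.01 ± 2.16 points (SD, n = 9) and ran from −13.0 in replicate 1 of shEZH2 to −5.76 in DMSO. It was −16.8 to −10.8 among promoter regions and −14.9 to −6.47 among the others, so it was present in both classes. The next megabase was lower still: the median over regions of the mean percentile was 19.9 there, 22.5 in the subtelomeric set and 35.8 in the rest, and among promoter regions 40.5, 45.1 and 62.6. By −log10 p the order did not hold: the mean difference was 1.29 points, from −0.91 to 4.23, with subtelomeric regions lower in 4 libraries and higher in 5.

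The components of fold enrichment moved in opposite ways. A summit's tag number and the background the caller set against it could be recovered from the fold enrichment and −log10 p of every peak. Median tags at the summit were higher near the ends in all 9 libraries, for example 42 against 36 in replicate 1 of shCtrl, with ratios of 1.12 to 1.24. The median background was higher still, 5.78 against 3.90 tags in that library, with ratios of 1.38 to 1.58. Peaks at the lowest background of their list made up 3.22 to 8.65% of subtelomeric peaks and 11.1 to 20.0% of the others. Away from promoters the background ratios were 1.27 to 1.38 and the tag ratios 1.03 to 1.14. The part of this background in the lower percentiles was not tested beyond these values.

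**Figure D4:**
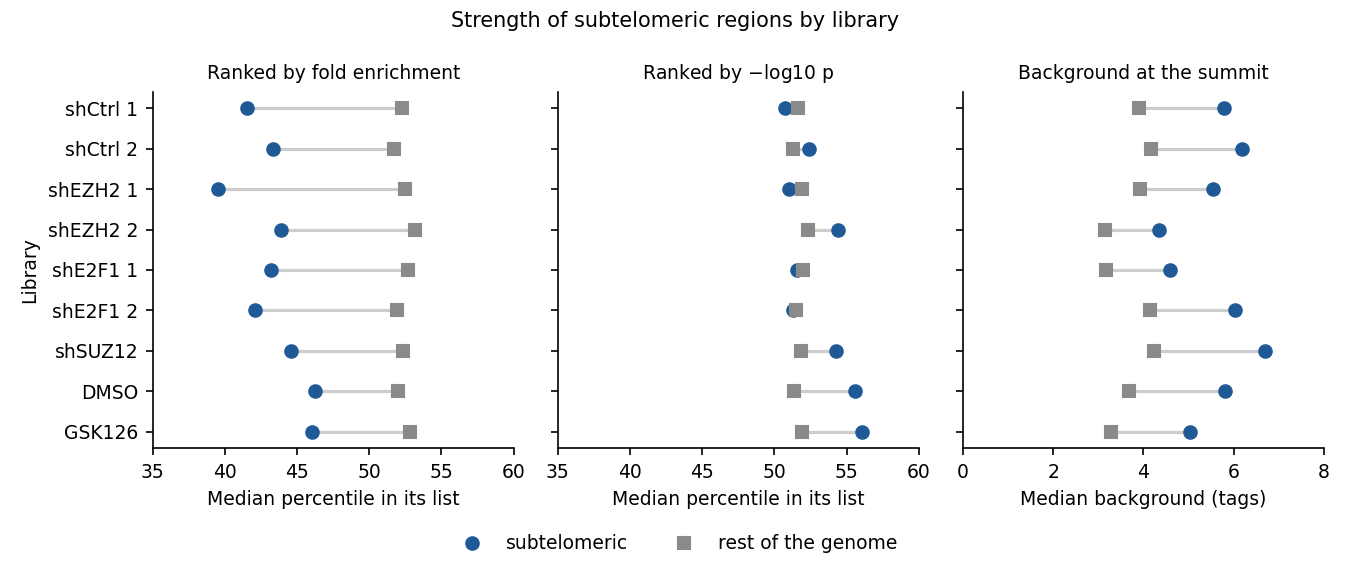
Median percentile of subtelomeric regions (circles) and of the rest of the genome (squares) in each of 9 libraries, ranked by fold enrichment (left) and by −log10 p (middle; both axes start at 35), and the median recovered background in tags (right). Circles lie left of squares in all 9 libraries by fold enrichment, on both sides by −log10 p, and right of squares for background.

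Condition made little difference to how much of each list was subtelomeric. The question was whether loss of EZH2, E2F1 or PRC2 activity shifted peaks towards or away from chromosome ends. Subtelomeric peaks made up 2.06% and 2.02% of autosomal peaks in shCtrl, 2.04% and 1.96% in shEZH2, 2.03% and 1.98% in shE2F1, 2.01% in shSUZ12, 1.98% in DMSO and 1.93% in GSK126. The groups overlapped. The difference from shCtrl was −0.038 percentage points for shEZH2 (exact permutation test, two-sided, p = 0.667, n = 2 and 2) and −0.036 for shE2F1 (exact permutation test, p = 0.667, n = 2 and 2), beside replicate SDs of 0.057 in shEZH2, 0.037 in shE2F1 and 0.0225 in shCtrl. Both differences were below the SD of their knockdown group and above that of shCtrl. The design of 2 against 2 cannot go below 0.3333, and p-values measure only the spread between these libraries. With the 4 PRC2-perturbed libraries (shEZH2, shSUZ12 and GSK126) against the 3 controls (shCtrl and DMSO), the difference was −0.032 percentage points (exact permutation test, two-sided, p = 0.4, smallest possible 0.0571). Both differences from shCtrl changed sign with lists of equal length, to 0.0026 for shEZH2 and 0.025 for shE2F1, and that for shEZH2 also without replicate 2 of shEZH2, to 0.0024.

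Regions gained with a knockdown were those with a peak in every knockdown library and no shCtrl library, and lost regions the reverse. The same shCtrl libraries entered each comparison. With shEZH2, 9 subtelomeric regions (0.37%) were gained, where 0.728% of all 115414 regions were, and 124 (5.08%) were lost, where 5.87% of all were. With shE2F1, 50 (2.05%) were gained against 2.58% of all, and 85 (3.48%) were lost against 3.34%. With 1 library each, shSUZ12 had 118 (4.83%) gained against 5.35% and 152 (6.22%) lost against 6.85%, and GSK126 had, relative to DMSO, 127 (5.20%) gained against 5.65% and 267 (10.9%) lost against 11.2%. The shares lay near their background except for the shEZH2 gains, where 9 regions (95% Wilson interval 0.194 to 0.699%) lay below it. The next megabase, 1 to 2 Mb from the end, was about as low, with 11 regions (0.40%) gained, so this was not particular to the windows. Of the 124 regions lost with shEZH2 17 were promoters, and of the 85 lost with shE2F1 9 were. The 9 and 50 gained regions included 0 and 3. Promoters made up 19.5% of all members. Their share of the gained and lost regions of the whole genome was not computed, so nothing is drawn from these counts. Leaving out a library loosens the rule, and shares are given here against those outside the windows. The shEZH2 gains rose to 22 (0.94% against 1.47%) and 26 (1.12% against 1.78%) without replicates 1 and 2 of shCtrl. Without those of shEZH2 they rose to 39 (1.65% against 2.17%) and 149 (6.15% against 5.55%), so the lower share did not hold without replicate 2 of shEZH2. The shEZH2 losses rose to 343 (14.7% against 14.6%) and 308 (13.2% against 12.4%) without those of shCtrl. They rose to 311 (13.2% against 13.6%) without replicate 1 of shEZH2. For shE2F1, gains rose to 76 (3.3% against 4.1%) and 84 (3.6% against 4.7%) without those of shCtrl. Without those of shE2F1 they rose to 269 (11.3% against 11.5%) and 143 (6.2% against 5.8%). Losses rose to 273 (11.7% against 9.99%) and 252 (10.8% against 8.6%) without those of shCtrl, and to 223 (9.7% against 10.9%) without replicate 2 of shE2F1.

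**Figure D5:**
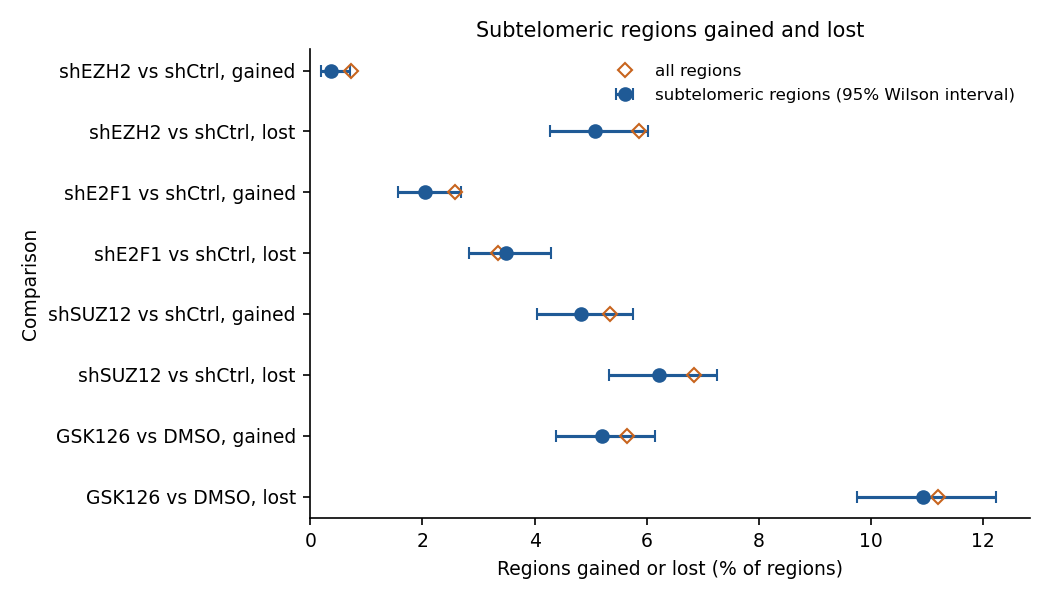
Percent of subtelomeric regions gained or lost in each of 4 comparisons (circles, with 95% Wilson intervals for counting error) and percent of all regions (diamonds). The circle for shEZH2 gains (0.37%, interval 0.194 to 0.699%) lies below its diamond (0.728%), and that for GSK126 losses (10.9%) near its own (11.2%).

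The strongest of these regions were of middling rank. The lost region with the highest lower value in shCtrl lay in an intron of IQCG on 3q (chr3:197943006-197943340), at percentiles 73.5 and 71.7 in shCtrl, 33.2 and 72.3 in shE2F1 and 43.8 in shSUZ12, with no peak in shEZH2, DMSO or GSK126. Another lay in an exon of LRRK1 on 15q (chr15:101015037-101015586), at 60.2 and 68.9 in shCtrl, 42.8 in replicate 2 of shE2F1, 51.7 in DMSO and 39.98 in GSK126, and had no other peak. The IQCG region was thus missing from the DMSO control too, and the LRRK1 region from 1 shE2F1 library. Of the shEZH2 gains, that on 14q (chr14:106879094-106879562) had 42.4 and 37.9 in shEZH2, 54.1 and 32.6 in shE2F1 and 43.7 in DMSO. With shE2F1, a region in an intron of the potassium channel gene KCNG2 on 18q (chr18:79844974-79845383) was open at 69.9 and 69.2 in the 2 shE2F1 libraries and in no other. A region over LINC01622 on 6p (chr6:958550-958924) was lost, with 70.98 and 74.1 in shCtrl, 65.2 and 82.3 in shEZH2, 64.0 in shSUZ12 and 34.97 in GSK126, and no peak in shE2F1 or DMSO.

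Regions open everywhere allowed strength to be compared by condition. In total 39553 regions, 805 of them subtelomeric, had a peak in every library and were ranked against each other in each library, a comparison added after the data were seen. With shEZH2, 178 subtelomeric regions (22.1%) ranked lower in both libraries than in both shCtrl libraries, where 19.1% of all such regions did, and 147 (18.3%) ranked higher, where 21.8% did. With shE2F1, 175 (21.7%) ranked lower against 19.6% and 158 (19.6%) higher against 20.5%. The median rank difference of subtelomeric regions was −0.48 points with shEZH2 and −0.20 with shE2F1, and that of the others 0.42 and 0.23. Without replicates 1 and 2 of shCtrl and then of shEZH2, the shEZH2 counts were 293, 268, 303 and 350 lower and 235, 268, 319 and 284 higher. Without those of shCtrl and then of shE2F1, the shE2F1 counts were 294, 265, 304 and 314 lower, and without replicate 2 of shCtrl and those of shE2F1 283, 306 and 307 higher. With all libraries the shares lay within a few points of their background. Of the settings that left out a library, the gap was widest for higher ranks with shEZH2 without replicate 1 of shCtrl. Nothing particular to chromosome ends is drawn from these shares. The widest separations, chosen after their values were seen, included a region in an intron of B4GALNT3, a glycosyltransferase gene on 12p (chr12:487769-488239), ranked at 67.3 and 68.8 in shCtrl, 9.84 and 29.2 in shEZH2 and 95.1 and 94.4 in shE2F1. The promoter of ZNF596 on 8p, outermost region of its arm, ranked at 36.2 and 43.0 in shCtrl and 76.6 and 85.5 in shEZH2, and at 74.0 in DMSO. The promoter of ZNF256 on 19q ranked at 88.7 and 96.01 in shCtrl and 48.9 and 56.9 in shE2F1.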

How the data were processed

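The authors aligned ATAC-seq reads with Bowtie2, keeping up to 4 placements per read, shifted them for Tn5 and called peaks per library. The peak caller is not given in the sources used here, and coordinates fit GRCh38. The deposited lists give fold enrichment (a ratio to local background), −log10 of p and of q, a score and the summit, each as the authors made it. Tags and background were solved from fold enrichment and −log10 p for 100% of peaks. The lowest background, which follows depth, was 1.41 to 2.18 tags per library.

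Distances use the GRCh38 ends, N bases included. Genes are canonical transcripts of GENCODE v44. Copies were counted by exact 31-mers on both strands of the assembly. A region's percentile is that of its strongest peak. Region members, gene lists and tests were chosen with earlier results of these data known. Named regions were the 3 densest and 3 sparsest arms, the outermost, strongest, repeated and TTAGGG-bearing regions, and the strongest gained and lost ones. Some of these regions are not reported here. Alternatives were a 500 kb or 2 Mb window, a −log10 q of at least 5, lists of equal length, summit windows of 250 bp on each side, −log10 p as rank, all bases, leaving out each replicate, and a replicate block. Group differences used exact permutation of libraries. Procedures were tested on simulated data. The software was scipy 1.17.1, numba 0.67.0, matplotlib 3.10.9, pandas 2.3.3 and numpy 2.4.6 under Python 3.11.15.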

Additional observations from a re-analysis of the deposited data

How the results depend on the processing

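The excess density kept its direction in every alternative run. It moved by more than the spread between libraries with a 500 kb window (1.31), a 2 Mb window (1.67), a −log10 q of at least 5 (1.45) and lists of equal length (1.37), and ran from 1.55 to 1.58 without single replicates. The share with a peak in all libraries moved to 37.8% at a −log10 q of at least 5 and 46.8% with lists of equal length, and was 34.6% to 36.1% without single replicates. The percentile difference was −5.40 with a 500 kb window, −11.6 with a 2 Mb window, −6.66 with lists of equal length and 1.29 when peaks were ranked by −log10 p, and −9.12 to −8.54 without single replicates.

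The share of subtelomeric peaks changed sign with lists of equal length for shEZH2 (0.0026 percentage points) and shE2F1 (0.025), and without replicate 2 of shEZH2 (0.0024). Without single replicates it was −0.078 to 0.0024 for shEZH2, −0.062 to −0.0094 for shE2F1 and −0.051 to −0.014 for the PRC2 perturbations. With a replicate block the differences were −0.038 and −0.036, each with an exact sign-flip p of 0.5, the smallest that 2 pairs allow. The numbers mark no shared batch in the labels, and replicate differences of shCtrl correlated across 805 subtelomeric regions at 0.11 with those of shEZH2 and 0.058 with those of shE2F1.

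Counts of gained and lost regions scale with the window. Shares are given against those outside the window. With 500 kb and 2 Mb windows, shEZH2 gains were 5 (0.51% against 0.73%) and 20 (0.38% against 0.74%). The shEZH2 losses were 53 (5.44% against 5.87%) and 267 (5.11% against 5.91%). For shE2F1, gains were 15 (1.54% against 2.58%) and 106 (2.03% against 2.60%) and losses 33 (3.39% against 3.34%) and 172 (3.29% against 3.34%). With lists of equal length, shEZH2 gains were 26 (1.70% against 2.30%) and losses 52 (3.39% against 3.34%). For shE2F1 they were 28 (1.83% against 3.17%) and 37 (2.41% against 3.23%). Without single replicates, shEZH2 gains were 9 (0.38% against 0.75%) to 149 (6.15% against 5.55%) and losses 124 (5.2% against 6.0%) to 343 (14.7% against 14.6%). For shE2F1, gains were 50 (2.1% against 2.7%) to 269 (11.3% against 11.5%) and losses 84 (3.6% against 3.4%) to 273 (11.7% against 9.99%). Single-library groups, unknown read counts per region and unplaceable repeats limit these results.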

Other observations

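The ends of chromosome X, which the selection left out, were read in the same way. The last megabase of the short arm, which belongs to the pseudoautosomal region shared with chromosome Y, held 0 to 4 peaks per library, and that of the long arm 9 to 14. No knockdown or GSK126 library exceeded the highest of shCtrl and DMSO, which was 4 peaks on the short arm and 14 on the long arm.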
